A study of Homo sapiens with 8 samples.

Results

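The genes described here are 10 members of the YAP and TEAD transcription system: the coactivators YAP1 and WWTR1 (the gene of TAZ), the DNA-binding factors TEAD1, TEAD2, TEAD3 and TEAD4, and the target genes CTGF, CYR61, ANKRD1 and AMOTL2. They were taken by gene name from a deposited table of 30386 genes, and all 10 were found; CTGF and CYR61 are the older names of CCN2 and CCN1. The table compares endothelial cells (iEC, 4 samples) with retinal endothelial cells (iREC, 4 samples). Both came by differentiation from WTC-TJP1, a human induced pluripotent stem cell line, so both carry the same genotype, and both were taken at passage 1. All sample titles carry TJP1, a gene symbol that is also in the line's name. What it marks is not described here. The labels give the cell type of both groups as endothelial and name no treatment or step that sets iREC apart. The design text calls the differentiations matched. Samples are lettered C, D, E and F in each group; the labels do not say whether these were separate differentiations or whether a letter marks a pair, so p-values measure the spread between these samples, which may be technical. All samples come from the same line, which limits what they show about other donors.

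YAP and TAZ do not bind DNA themselves. They enter the nucleus and act through TEAD proteins, which recognise a short motif in promoters and enhancers. The Hippo kinases, STK3 and STK4 followed by LATS1 and LATS2, phosphorylate YAP and TAZ and hold them in the cytoplasm, where they are degraded. In endothelium, YAP and TAZ respond to flow, stretch and cell contact and take part in vessel sprouting and in the growth of the retinal vasculature. Because this control acts on the proteins, their phosphorylation and place in the cell, messenger RNA of YAP1 and WWTR1 does not measure their activity.

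The libraries held 14877502 to 16971865 counts in iEC and 13739364 to 15987839 in iREC. CPM values are read counts scaled to library size with the TMM factors of edgeR, and FPKM values are the authors' and also correct for gene length. Groups were compared with edgeR's quasi-likelihood test over all 15330 genes that passed the filter on low counts, and calls were made at an adjusted p below 0.05. All 10 members passed that filter. In every sample, all 10 endothelial markers examined (among them PECAM1, CDH5 and VWF) were above 3 counts. Together they summed to 7325 to 9420 CPM in iEC and 4306 to 9588 CPM in iREC. Of these markers 6 were called, 4 lower in iREC (PECAM1, CDH5, ESAM and EGFL7) and 2 higher (TEK and CLDN5). Of all tested genes, 11.7% were called lower and 13.2% higher. PECAM1 fell from 2233 ± 286 to 754 ± 175 CPM and TEK rose from 58.9 ± 20.6 to 833 ± 272 CPM (n = 4, SD; adjusted p 0.000632 and 0.00011 by edgeR). The lowest sum, 4306, was that of iREC F. That sample also had the most mural and mesenchymal marker RNA, 5800 CPM where the rest of iREC had 1330 to 2099, and the most epithelial marker RNA, 4933 CPM against 302 to 1123. In bulk samples, fewer cells of a type and less RNA per cell cannot be told apart.

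Of the 10 members, 6 were called, 5 of them higher in iREC (TEAD1, TEAD3, CTGF, ANKRD1 and AMOTL2) and 1 lower (TEAD4). Over all genes tested the called share was 25.0%, with 13.2% called higher and 11.7% called lower. YAP1, WWTR1, TEAD2 and CYR61 were not called, and CTGF lost its call with the replicate letter as a block. The median log2 fold change of the members was 0.95, beside 0.020 over all tested genes. CPM values of the groups did not overlap in 6 members (TEAD1, TEAD3, TEAD4, CYR61, ANKRD1 and AMOTL2), where 29.1% of all tested genes showed no overlap. The authors' deposited table lists 7 of the members with an adjusted p under 0.05, the same 6 and CYR61. The share of all genes under that threshold in the authors' comparison is not given here. The 25.0% belongs to the edgeR fit, so this count does not show whether the members stand out.

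**Figure D1:**
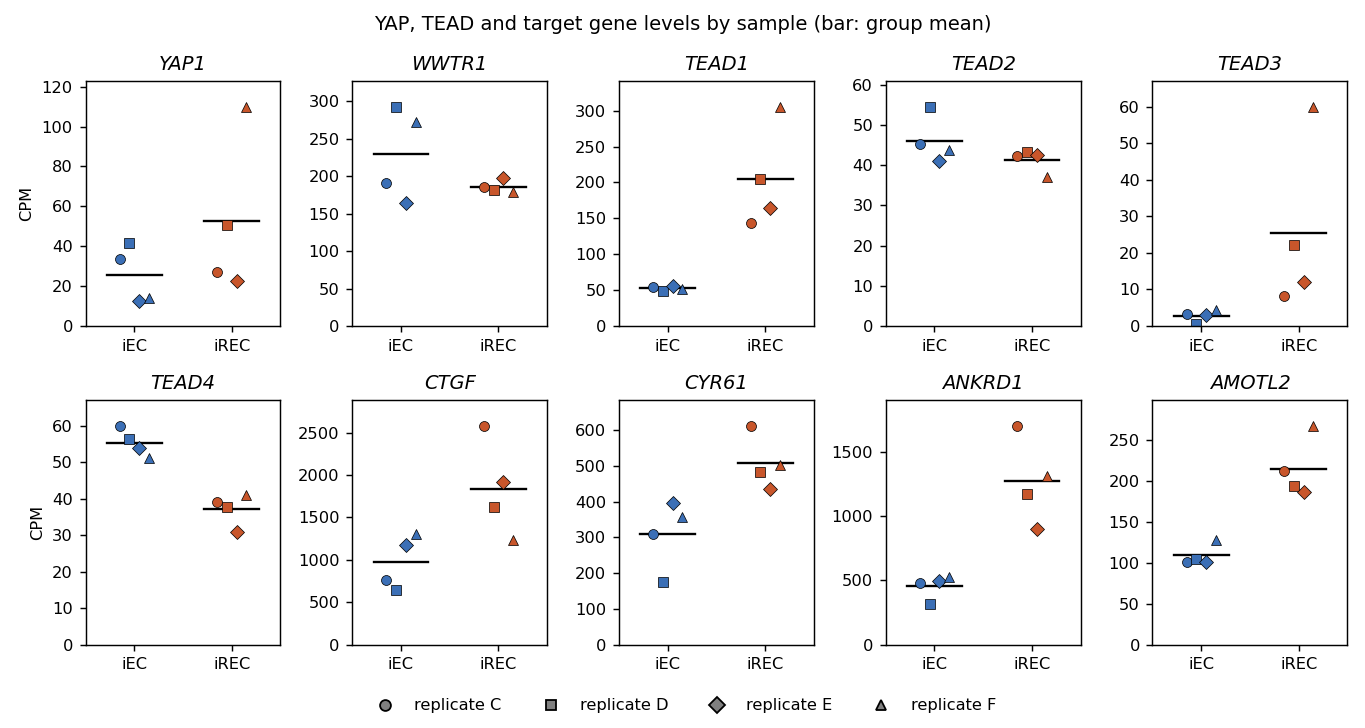
Level of each member in every sample, in CPM on a linear axis that starts at 0, with iEC in blue and iREC in orange; marker shapes give the replicate letter and horizontal bars the group mean. TEAD1 lies between 48.8 and 55.3 CPM in iEC and between 144 and 305 CPM in iREC, while TEAD4 is lower in every iREC sample.

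WWTR1 (ENSG00000018408, chromosome 3, 149517235 to 149736714 on GRCh38) encodes TAZ, the YAP paralog. It had 190 CPM in iEC C, 292 in D, 165 in E and 272 in F, and 186, 181, 197 and 179 CPM in the iREC samples C, D, E and F. The iREC samples lay close together and inside the range of the iEC samples. The means were 230 ± 61.8 and 186 ± 8.05 CPM (n = 4, SD), a log2 fold change of -0.31 ± 0.18 (SE), with an edgeR adjusted p of 0.259. The 95% interval of the difference ran from -0.72 to 0.11 on the log2 scale.

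YAP1 (ENSG00000137693, chromosome 11, 102110461 to 102233423) had 33.7 and 41.6 CPM in iEC C and D, and 12.3 and 14.1 CPM in iEC E and F. In iREC it had 26.9 CPM in C, 50.7 in D, 22.7 in E and 110 in F. The iEC samples thus fell into a higher and a lower pair, and iREC F held the highest value of all. The means were 25.4 ± 14.5 and 52.5 ± 40.1 CPM (n = 4, SD). The log2 fold change of 1.05 ± 0.56 (SE) was not called (adjusted p 0.208 by edgeR), and its 95% interval, from -0.22 to 2.31, includes both a small fall and a large rise. Without iREC F the log2 fold change dropped to 0.39 (adjusted p 0.565 by edgeR).

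On the length-corrected scale, WWTR1 was the more abundant coactivator in every sample. The ratio of WWTR1 to YAP1 FPKM was 4.23, 5.25, 10.01 and 14.4 in iEC C, D, E and F, and 5.17, 2.67, 6.51 and 1.22 in iREC C, D, E and F. These ranges overlapped. YAP1 made up 45.0% of the combined FPKM of both genes in iREC F, where iREC C, D and E had 13.3% to 27.2% and iEC 6.48% to 19.1%. The combined level was similar in size, 31.1 ± 8.53 FPKM in iEC and 29.9 ± 5.83 FPKM in iREC (n = 4, SD).

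The TEAD factors differed among themselves. TEAD1 (ENSG00000187079, chromosome 11, 12674591 to 12944483) had 54.0, 48.8, 55.3 and 51.0 CPM in iEC C, D, E and F, and 144, 205, 164 and 305 CPM in the iREC samples C, D, E and F. Every iREC sample was above every iEC sample, and the iEC samples were within 1.13-fold of each other. TEAD1 rose from 52.3 ± 2.96 to 204 ± 71.6 CPM (n = 4, SD), a 3.91-fold difference (log2 fold change 1.97 with SE 0.22, adjusted p 0.000339 by edgeR). Without iREC F, its highest sample, the log2 fold change was 1.71.

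TEAD3 (ENSG00000007866, chromosome 6, 35473597 to 35497076) was the scarcest family member in iEC. It had 3.38 CPM in iEC C, 0.506 in D, 3.02 in E and 4.29 in F, where D rests on 8 counts. In iREC it had 8.11 CPM in C, 22.2 in D, 11.97 in E and 59.8 in F. The groups did not overlap, but the iREC samples spanned 7.37-fold. TEAD3 rose from 2.80 ± 1.62 to 25.5 ± 23.6 CPM (n = 4, SD), a log2 fold change of 3.19 with an SE of 0.75 (adjusted p 0.0132 by edgeR). Without iREC F it was 2.33 (adjusted p 0.0193 by edgeR), so the size moved with that sample and the call did not.

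TEAD4 (ENSG00000197905, chromosome 12, 2959330 to 3040673) went the other way. It had 60.1, 56.4, 54.0 and 51.3 CPM in iEC C, D, E and F, and 39.3, 37.8, 31.0 and 40.9 CPM in the iREC samples C, D, E and F. Every iREC sample was below every iEC sample. TEAD4 fell from 55.5 ± 3.71 to 37.3 ± 4.35 CPM (n = 4, SD), which was 1.49-fold lower (log2 fold change -0.57 with SE 0.12, adjusted p 0.00895 by edgeR). Here iREC F was the highest of the iREC samples, and without it the log2 fold change was -0.62.

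TEAD2 (ENSG00000074219, chromosome 19, 49340595 to 49362457) ran from 40.9 to 54.4 CPM in iEC, with a mean of 46.1 ± 5.81 (n = 4, SD). In iREC it ran from 36.9 CPM in F to 43.3 CPM in D, with a mean of 41.2 ± 2.91 (n = 4, SD). The ranges overlapped and the gene was not called (log2 fold change -0.16 with SE 0.13, adjusted p 0.389 by edgeR). The 95% interval, from -0.44 to 0.12, is on the log2 scale and includes 0. CD37 overlaps 10.7% of its exon bases on the opposite strand, with a mean of 98.6 counts against 671 for TEAD2, so a part of either count could belong to the other if counting ignored strand.

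The make-up of the TEAD family followed from these differences. TEAD4 held 51.8% to 55.1% of the family's FPKM in iEC and 22.6% to 35.9% in iREC. TEAD1 held 9.89% to 12.3% in iEC and 29.1% to 37.2% in iREC. In iREC, TEAD1 was the largest part in samples D, E and F and TEAD4 in sample C. TEAD3 held 0.346% to 3.23% in iEC and 5.54% to 24.6% in iREC, the last in sample F. TEAD2 held 33.6% ± 3.08 in iEC and 24.9% ± 6.64 in iREC (n = 4, SD). The family summed to 45.5 ± 1.81 FPKM in iEC and 57.6 ± 15.2 FPKM in iREC (n = 4, SD), and the groups overlapped, iREC C and E lying at 47.2 and 46.7 FPKM.

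**Figure D2:**
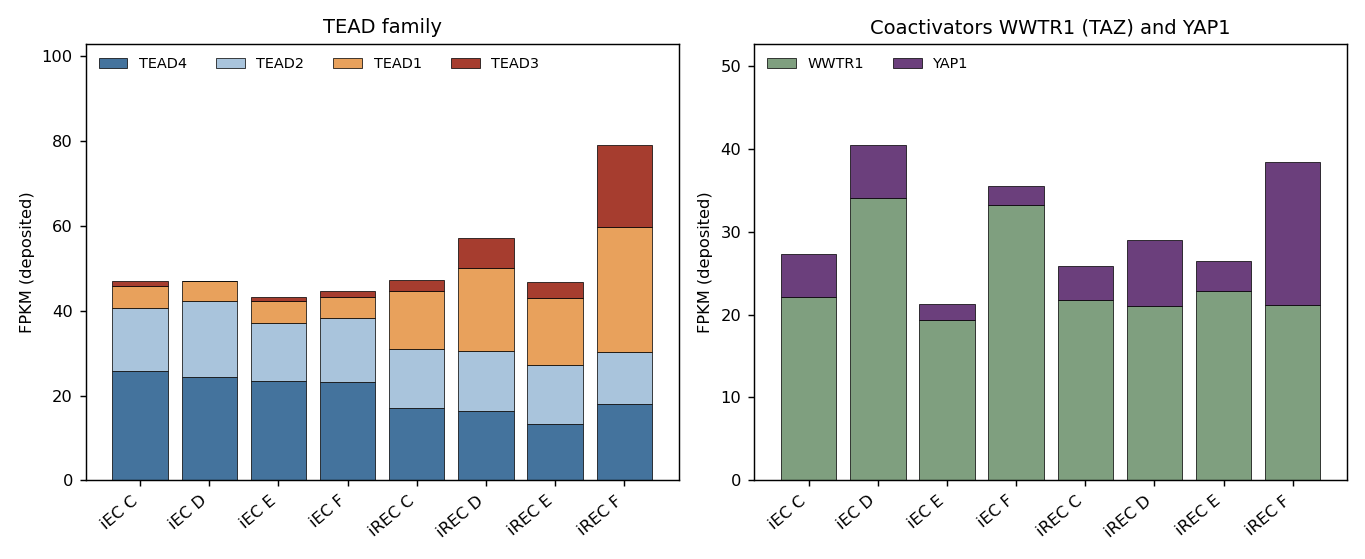
Deposited FPKM per sample, stacked by gene, for the TEAD family (left) and for WWTR1 and YAP1 (right), on linear axes from 0. TEAD4 takes 51.8% to 55.1% of each iEC bar, TEAD1 and TEAD3 widen in every iREC bar, and iREC F has the tallest TEAD bar, 79.1 FPKM, and the largest YAP1 share.

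The target genes are those most often read as signs of YAP and TEAD activity. CTGF and CYR61 encode secreted matricellular proteins of the CCN family, ANKRD1 a muscle and endothelial ankyrin-repeat protein, and AMOTL2 an angiomotin that binds YAP and holds it back. CTGF, CYR61 and ANKRD1 also respond to TGF-beta and to the actin-regulated factors SRF and MRTF. The TEAD core motif, GGAATG on either strand, was looked for in RefSeq promoter windows on GRCh38.p14, each from 250 bases before to 50 after a start site. Windows were found for 7 of the 10 members, not for TEAD1, TEAD4 or CYR61. Sequences around each match are shown because they hold the letters that TEAD proteins recognise beside the start sites of these genes; capitals mark the core, each line runs 5′ to 3′ on the gene's strand, and positions count from the start site.
CTGF, chr6:131951398-131951547, minus strand, -175 to -26: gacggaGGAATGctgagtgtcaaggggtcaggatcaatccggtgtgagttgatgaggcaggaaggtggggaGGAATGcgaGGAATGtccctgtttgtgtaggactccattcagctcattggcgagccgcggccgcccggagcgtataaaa
ANKRD1, chr10:90921290-90921319, minus strand, -232 to -203: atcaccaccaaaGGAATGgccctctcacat
ANKRD1, chr10:90921198-90921227, minus strand, -140 to -111: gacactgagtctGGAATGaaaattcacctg
AMOTL2, chr3:134374499-134374528, minus strand, -81 to -52: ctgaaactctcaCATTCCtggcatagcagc
YAP1, chr11:102110267-102110326, plus strand, -180 to -121: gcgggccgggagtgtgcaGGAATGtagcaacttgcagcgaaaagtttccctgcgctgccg

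CTGF had 3 cores within its window, the first bases at -169, -104 and -95, all in the same orientation. Of all 35116 promoter windows, 14.0% held at least 1 core and 0.128% held 3 or more. ANKRD1 had 2, first bases at -220 and -128, and 1.37% of windows held 2 or more. In GENCODE release 29 the second of these lies within an annotated ANKRD1 exon, since that model starts further upstream. AMOTL2 had 1 core, in the opposite orientation, in the second of its 2 windows, and the stretch printed lies within an annotated AMOTL2 exon. YAP1 itself had 1, in a stretch that overlaps an exon of AP001527.2. The windows of WWTR1, TEAD2 and TEAD3 held none. The core of the AP-1 factors, which often bind beside TEAD, TGANTCA on both strands, occurred once, in ANKRD1 at -195, and in 7.71% of all windows. A match describes letters in a window and does not show that a factor binds there.

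ANKRD1 (ENSG00000148677, chromosome 10, 90912096 to 90921276) had 480, 314, 491 and 524 CPM in iEC C, D, E and F. In iREC it had 1705, 1176, 901 and 1315 CPM in C, D, E and F. No iREC sample overlapped the iEC range. ANKRD1 rose from 452 ± 94.3 to 1274 ± 335 CPM (n = 4, SD), a 2.82-fold difference (log2 fold change 1.49 with SE 0.23, adjusted p 0.00163 by edgeR). ANKRD1 is abundant in heart muscle, and a part of heart muscle cells in its difference was not tested. Of 7 cardiac muscle markers listed, 6 were found, and none of them passed the filter on low counts. In each iEC sample 5 to 6 of these markers were at or under 3 counts, and in each iREC sample 3 to 5. They summed to between 0 and 0.533 CPM in iEC and between 1.05 and 8.25 CPM in iREC, without overlap, the highest value in iREC F. Most of that was MYL7, which had 107 counts (7.01 CPM) in iREC F and 0 in every iEC sample, while TNNT2 had 11 counts in iREC F and 0 in all other samples.

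AMOTL2 (ENSG00000114019, chromosome 3, 134355874 to 134375479) had 101, 104, 101 and 128 CPM in iEC C, D, E and F. It had 212, 193, 186 and 267 CPM in the iREC samples C, D, E and F. The groups did not overlap, and sample F was the highest in each. AMOTL2 rose from 109 ± 13.0 to 215 ± 36.6 CPM (n = 4, SD), a log2 fold change of 0.98 with an SE of 0.15 (adjusted p 0.00141 by edgeR). Without iREC F it was 0.86.

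CTGF (ENSG00000118523, chromosome 6, 131948176 to 131951373) had 760, 638, 1181 and 1307 CPM in iEC C, D, E and F, and 2582, 1628, 1916 and 1239 CPM in the iREC samples C, D, E and F. The groups overlapped, since iREC F lay below iEC F. CTGF rose from 971 ± 323 to 1841 ± 566 CPM (n = 4, SD; log2 fold change 0.92 with SE 0.29, adjusted p 0.0436 by edgeR). Among 8 fits, each with 1 sample removed, only those without iEC F or iREC F kept the call; without iEC C, D or E or iREC C, D or E the adjusted p by edgeR rose to between 0.0689 and 0.118. Over the 8 fits the log2 fold change ran from 0.71 to 1.09. With the replicate letter as a block CTGF was not called either.

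CYR61 (ENSG00000142871, chromosome 1, 85580761 to 85583962) had 310, 175, 397 and 358 CPM in iEC C, D, E and F, and 612, 484, 436 and 501 CPM in the iREC samples C, D, E and F. The groups did not overlap, yet the gene missed the threshold. The means were 310 ± 96.7 and 508 ± 74.7 CPM (n = 4, SD), a log2 fold change of 0.71 with an SE of 0.24 (adjusted p 0.0549 by edgeR). It was called under upper quartile scaling, with library sizes alone, by DESeq2 and by limma-voom, with adjusted p between 0.0423 and 0.0466, and in none (0) of the 8 edgeR fits that left out a sample.

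**Figure D3:**
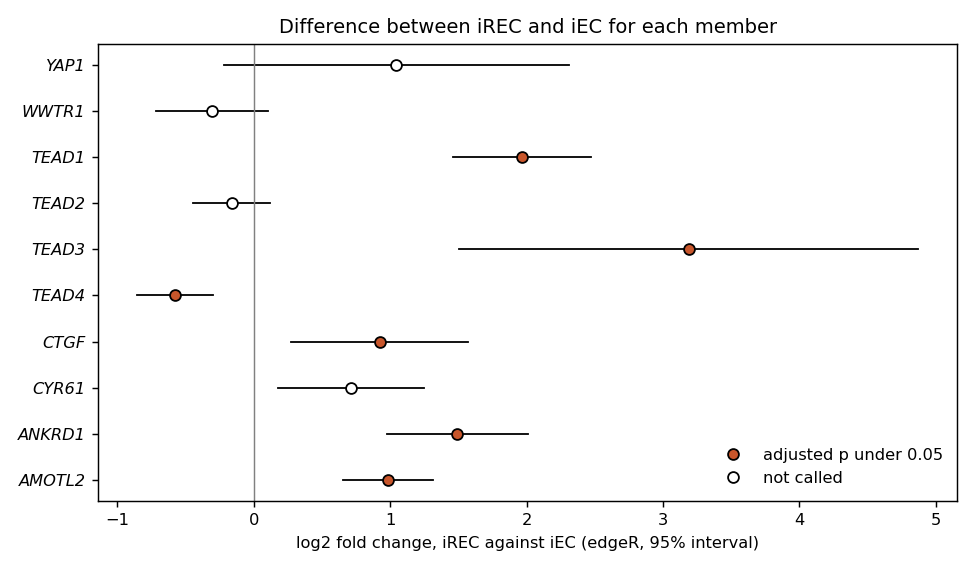
Fitted log2 fold change of each member, iREC against iEC, with its 95% interval from the edgeR fit; filled points were called after adjustment over all 15330 genes. The intervals are not adjusted, so that of CYR61 (0.18 to 1.25) excludes 0 although the gene was not called.

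Within each group, the sample with the most YAP1 had the least CTGF. In iEC, sample D had the most YAP1 (41.6 CPM) and the least CTGF, CYR61 and ANKRD1 (638, 175 and 314 CPM). In iREC, sample F had the most YAP1 (110 CPM) and the least CTGF (1239 CPM) but the most AMOTL2 (267 CPM), while sample C had the most CTGF, CYR61 and ANKRD1 with 26.9 CPM of YAP1. With 4 samples a group this is a description without a test.

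By length-corrected level the order in iEC was CTGF (414 ± 145 FPKM), ANKRD1 (227 ± 50.2), CYR61 (126 ± 40.1), WWTR1 (27.2 ± 7.53), TEAD4 (24.2 ± 1.20), AMOTL2 (18.1 ± 2.61), TEAD2 (15.3 ± 1.82), TEAD1 (5.05 ± 0.281), YAP1 (3.98 ± 2.22) and TEAD3 (0.918 ± 0.542; SD, n = 4 throughout). Ranges of neighbours overlapped between CTGF and ANKRD1, ANKRD1 and CYR61, WWTR1 and TEAD4, AMOTL2 and TEAD2, and TEAD1 and YAP1. In iREC the secreted targets and ANKRD1 again led, with 773 ± 236 FPKM for CTGF, 633 ± 168 for ANKRD1 and 204 ± 30.3 for CYR61. AMOTL2 came next at 35.3 ± 6.31 FPKM, above WWTR1 (21.7 ± 0.844). From WWTR1 down, through TEAD1 (19.6 ± 7.002), TEAD4 (16.1 ± 1.97), TEAD2 (13.6 ± 0.868), TEAD3 (8.27 ± 7.72) and YAP1 (8.22 ± 6.34), each gene overlapped the next.

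The genes around the members were described by lists. The Hippo list holds the kinases, their scaffolds, the membrane regulators and the TEAD cofactors of the VGLL family. Of its 24 tested genes, 7 were called, 4 higher and 3 lower in iREC (29.2%, beside 25.0% of all tested genes), and its median log2 fold change was 0.13. The core kinases LATS1, LATS2 and STK4 were not called. The log2 fold changes of LATS1 and LATS2 were 0.12 ± 0.19 and 0.16 ± 0.18 (SE), with edgeR adjusted p of 0.699 and 0.552. That of STK4 was -0.33 ± 0.11 (SE), with an edgeR adjusted p of 0.0563. STK4 had 91.8 ± 2.83 CPM in iEC and 73.0 ± 8.39 CPM in iREC (n = 4, SD), and the groups did not overlap. STK3, the kinase MST2, which was not called without iEC E or iREC D (adjusted p 0.0527 and 0.0510 by edgeR), rose from 13.8 ± 2.16 to 21.6 ± 1.86 CPM (n = 4, SD; adjusted p 0.0169 by edgeR).

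The largest differences in that list were in VGLL3, FAT4 and WWC1. VGLL3, a cofactor that competes with YAP for TEAD, had 1.495, 0.379, 5.21 and 5.15 CPM in iEC C, D, E and F and 9.81, 56.6, 32.9 and 83.0 CPM in the iREC samples C, D, E and F (log2 fold change 3.90 with SE 0.82, adjusted p 0.00825 by edgeR). FAT4, a giant protocadherin and the counterpart of fly Fat, which acts upstream of the kinases, rose from 16.0 ± 8.42 to 110 ± 31.9 CPM (n = 4, SD; adjusted p 0.00063 by edgeR). WWC1, the scaffold KIBRA, rose from 2.27 ± 1.28 to 20.2 ± 20.9 CPM (n = 4, SD; log2 fold change 3.16, adjusted p 0.0146 by edgeR). In WWC1 iREC F had 50.2 CPM and iREC C 4.38 CPM, the latter just above iEC F at 4.15, and without iREC F the log2 fold change was 2.17. It was no longer called without iEC E (adjusted p 0.0502 by edgeR) or under limma-voom (0.0680).

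The called falls in the list were 2 kinases and an angiomotin. MAP4K4, which acts on LATS beside the MST kinases, fell from 1499 ± 140 to 869 ± 110 CPM (n = 4, SD; adjusted p 0.00341 by edgeR). TAOK3 fell from 30.3 ± 7.94 to 16.7 ± 5.53 CPM (n = 4, SD; adjusted p 0.0378 by edgeR); it was not called without iEC E, iEC F, iREC C, iREC D or iREC E (adjusted p by edgeR up to 0.106). AMOTL1, the paralog of AMOTL2, fell from 135 ± 18.0 to 93.3 ± 20.7 CPM (n = 4, SD; adjusted p 0.0458 by edgeR), where AMOTL2 rose. Leaving out a sample kept the AMOTL1 call only when that sample was iREC F (adjusted p by edgeR up to 0.132 for the other 7). The third angiomotin, AMOT, was not called (7.32 ± 4.82 and 11.8 ± 2.47 CPM, n = 4, SD; adjusted p 0.288 by edgeR). With the replicate letter as a block, TAOK3 and AMOTL1 were not called (adjusted p 0.0589 and 0.0741 by edgeR), which left 4 rises and 1 fall in the list. Without iEC E only 3 genes of the list were called, and without iREC D 4. The share of all genes called in those fits is not given here. The count over all genes also moved with the sample left out, so these counts do not single out the list.

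A list of 23 further genes often used as YAP targets, 3 of them shared with the Hippo list, had 22 tested. Of these 6 were called, 5 higher and 1 lower (27.3%, near the 25.0% of all tested genes), and the median log2 fold change was 0.42. TGFB2, a TGF-beta ligand, rose from 6.31 ± 6.36 to 99.2 ± 86.0 CPM (log2 fold change 3.98 with SE 0.84, adjusted p 0.00813 by edgeR). CCDC80, a matrix protein, rose from 7.65 ± 2.60 to 110 ± 44.5 CPM (log2 fold change 3.85 with SE 0.35, adjusted p 0.00011 by edgeR). THBS1, thrombospondin 1, rose from 1480 ± 302 to 4460 ± 1540 CPM (adjusted p 0.00359 by edgeR). TGFB2 moved with single samples, to 3.19 without iREC F and 4.89 without iEC F. EDN1, endothelin 1, which was not called without iEC D, iEC E or iREC E (adjusted p by edgeR up to 0.0650), rose from 167 ± 33.1 to 357 ± 141 CPM (adjusted p 0.0217 by edgeR). All of these are SD over 4 samples. CRIM1, which falls outside the naming rule and was chosen after its value was seen, was the fifth rise (672 ± 92.0 and 1248 ± 136 CPM, n = 4, SD; adjusted p 0.00209 by edgeR).

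The called fall was NT5E, the ectonucleotidase CD73, from 481 ± 142 to 246 ± 41.6 CPM (n = 4, SD; adjusted p 0.0140 by edgeR). Some widely used targets had negative fold changes without being called. AXL, a receptor tyrosine kinase, had 165 ± 69.7 CPM in iEC and 62.3 ± 46.2 in iREC (n = 4, SD; adjusted p 0.127 by edgeR). MYOF, myoferlin, had 521 ± 275 and 197 ± 110 CPM (n = 4, SD; adjusted p 0.0585 by edgeR). Both were chosen after their values were seen. DESeq2, fitted without the low-count filter, called 10 genes of the list, 6 higher and 4 lower. The share of all genes that DESeq2 called is not given here, so this count does not show whether the list stands out.

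Of the other CCN genes, WISP1 and NOV were tested and moved apart. WISP1 (CCN4) had 2, 4, 0 and 16 counts in iEC C, D, E and F and 2283, 1276, 1567 and 1471 counts in iREC C, D, E and F. That was 0.382 ± 0.519 and 108 ± 27.6 CPM (n = 4, SD; adjusted p 6.43e-05 by edgeR), so the size of the fold rests on few iEC reads: the log2 fold change was 8.19, and 9.66 without iEC F. NOV (CCN3), which is too low for the naming rule, had 14, 13, 118 and 44 counts in iEC C, D, E and F and 8, 0, 4 and 9 in iREC C, D, E and F (adjusted p 0.0358 by edgeR). NOV was not called without iEC E, iEC F, iREC C, iREC D or iREC E. WISP3 had at most 2 counts in any sample.

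Genes of the SRF and MRTF programme, which shares targets with YAP and TEAD and encodes actin-binding and contractile proteins, had 9 of 14 tested genes called, all higher in iREC (64.3%, beside 13.2% called higher of all tested genes), with a median log2 fold change of 1.13. The 4 largest among the called genes were CNN1 (1.72 ± 1.01 and 48.6 ± 44.8 CPM), TAGLN (34.6 ± 15.7 and 619 ± 238), MYL9 (80.5 ± 44.2 and 815 ± 282) and TPM1 (227 ± 74.4 and 1042 ± 318), given as iEC and iREC mean and SD (n = 4), with edgeR adjusted p of 0.00112, 0.000147, 0.000493 and 0.000568. SRF itself was 70.0 ± 8.62 CPM in iEC and 122 ± 21.2 in iREC (n = 4, SD; adjusted p 0.00484 by edgeR). Without iREC F the log2 fold change of CNN1 was 3.95, against 4.83 with it. Only 6 genes of the list were called without iEC C or without iEC D. The share of all genes called in those fits is not given here, so this count does not single out the list. The cytoplasmic actins ACTB and ACTG1 were not called (adjusted p 0.734 and 0.160 by edgeR). ACTA2 and TAGLN in this list are also among the mural and mesenchymal markers used here. The part of mural cells in the differences of the other genes of the list was not tested. SRF, ACTB, ACTG1 and ACTA2 lie outside the naming rule.

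**Figure D4:**
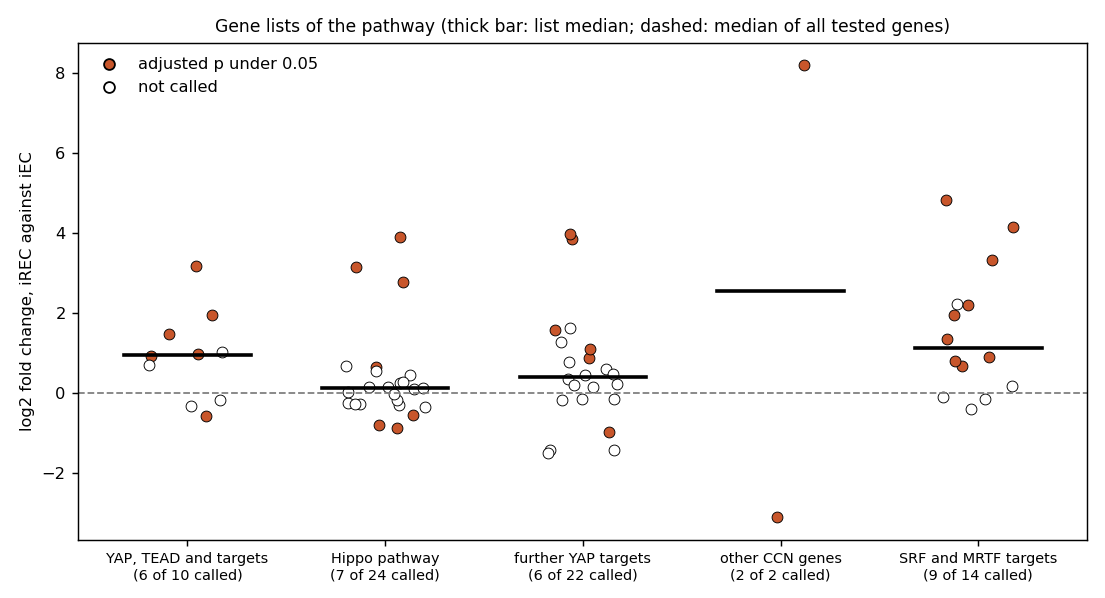
Fitted log2 fold change, iREC against iEC, of every tested gene in the member set and 4 lists, spread sideways only to part the points; filled points were called, thick bars are list medians and the dashed line is the median of all tested genes. The Hippo and further target lists lie around the dashed line with medians of 0.13 and 0.42, while 9 filled points of the SRF and MRTF list lie above it.

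Within iREC, markers of other cell types moved with some of these genes and not with others. Of 11 tested mural and mesenchymal markers 5 were called, 4 higher and 1 lower, beside 13.2% called higher and 11.7% lower of all tested genes. All 14 summed to 254 to 518 CPM in iEC and 1330 to 5800 CPM in iREC, without overlap. By sample, iREC C, D, E and F had 1519, 2099, 1330 and 5800 CPM of them. TAGLN and POSTN, singled out after their values were seen, carried this separation, with 1264 CPM together in iREC C and 1030 CPM in iREC E. The other 12 summed to 207 to 430 CPM in iEC and to 255, 691, 300.04 and 3616 CPM in the iREC samples C, D, E and F, so iREC C and E then lay inside the iEC range. RGS5, a pericyte marker, was the called fall, from a mean of 116 to 43.9 CPM (adjusted p 0.0210 by edgeR). TEAD1, TEAD3, YAP1, WWC1 and VGLL3 were highest in iREC F and second in iREC D, as was the sum of all 14 markers. These genes were picked after their values were seen, and other genes differed. CTGF (1239 CPM), FAT4 (76.0 CPM), THBS1 (2429 CPM) and EDN1 (187 CPM) were lowest in iREC F. CYR61 and ANKRD1 were highest in iREC C. In iEC the sum was also highest in F (518 CPM). TEAD3 and WWC1 were highest there (4.29 and 4.15 CPM), but TEAD1 (51.0 CPM), YAP1 (14.1 CPM) and VGLL3 (5.15 CPM) were not. Of 6 tested epithelial markers KRT7 alone was called, higher (1 of 6, or 16.7%, beside 25.0% of all tested genes), and the 7 listed summed to 392 to 1177 CPM in iEC and 302 to 4933 CPM in iREC. Of the mural and mesenchymal markers, 2 to 4 were at or under 3 counts in each iEC sample and 0 to 1 in each iREC sample; POSTN rose from a mean of 13.4 to 852 CPM (adjusted p 0.00132 by edgeR), while PDGFRA reached at most 26 counts and DES 95 in any sample. CDH1, a defining epithelial marker that did not pass the filter, had 0 to 1 counts in the iEC samples and 0, 5.14, 1.16 and 81.6 CPM in the iREC samples C, D, E and F, so nearly all of it was in iREC F. EPCAM averaged 1.46 CPM in iEC and 1.53 CPM in iREC (adjusted p 0.944 by edgeR). The part of these cell types in the differences of TEAD1, TEAD3 and the targets was not tested. Without iREC F, 6 members were called as before, 5 higher and 1 lower. The share of all genes called in that fit is not given here, so this count does not show whether the members stand out. The fit also keeps iREC C and E, where TAGLN and POSTN were high too. In it, the log2 fold changes of TEAD1, TEAD3, TEAD4, CTGF, ANKRD1 and AMOTL2 were 1.71, 2.33, -0.62, 1.07, 1.48 and 0.86. That of TEAD3 was 3.19 with iREC F.

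**Figure D5:**
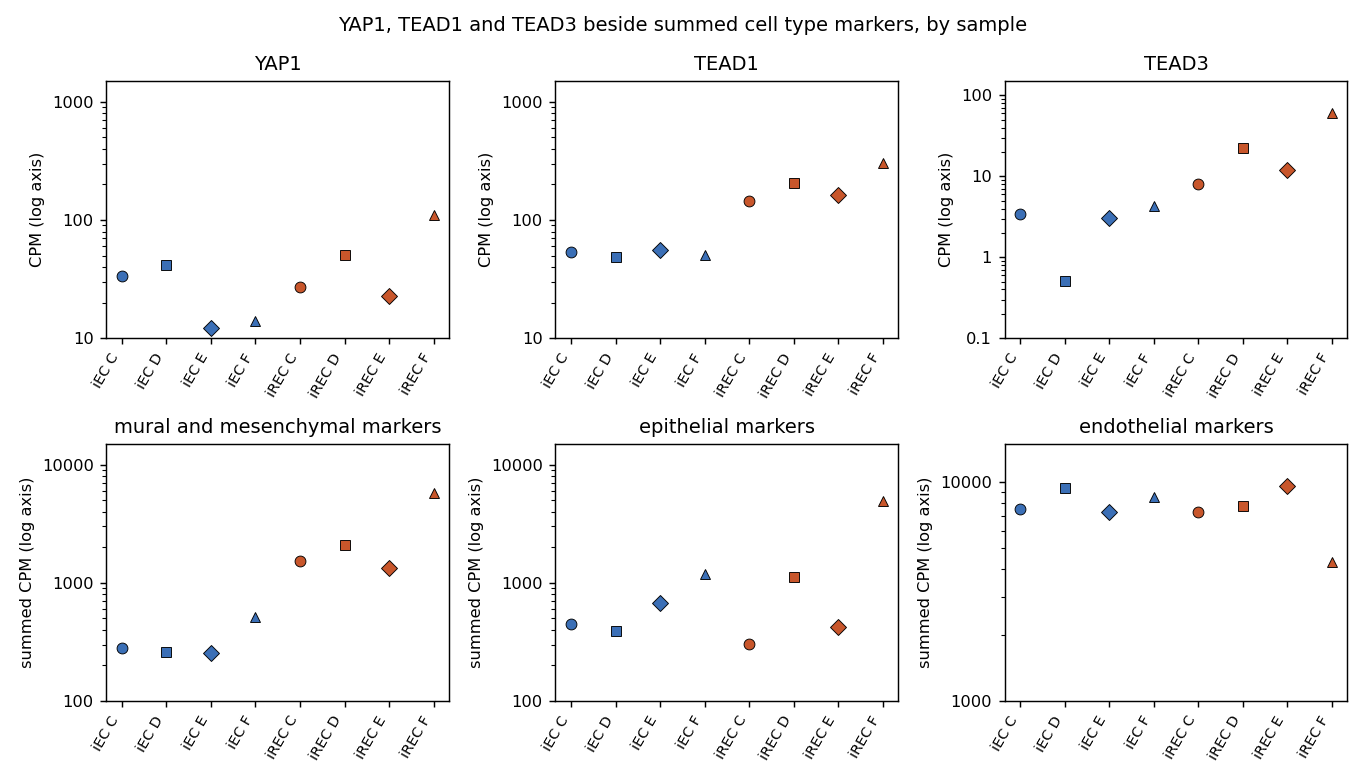
YAP1, TEAD1 and TEAD3 in CPM (top) and summed CPM of mural and mesenchymal, epithelial and endothelial markers (bottom) for each sample, on log axes, iEC in blue and iREC in orange. In iREC F the members and both non-endothelial sums are at their highest, and the endothelial sum is at its lowest, 4306 CPM.

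Genes with the most similar pattern over the 8 samples were found by Pearson correlation of log2 CPM among 9515 coding genes averaging 10 CPM or more, the members left out. For ANKRD1 they were HACD1 (r = 0.986), MSRB3 (0.976) and PDLIM7 (0.973). HACD1 had 11.5 ± 2.19 CPM in iEC and 41.7 ± 12.8 in iREC (n = 4, SD). For CTGF they included NAAA (r = 0.979) and PCED1A (0.955), and for CYR61 SNX25 (0.965), DSE (0.963) and ZNF513 (0.962). NAAA had 13.6 ± 3.63 and 22.2 ± 4.19 CPM in iEC and iREC (n = 4, SD). These values describe likeness over samples that share 2 groups and carry no test.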

How the data were processed

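Poly(A) RNA of 8 samples was sequenced from dUTP libraries, per the labels' protocols. Reads were trimmed with fastp and aligned with HISAT2 2.0.5 to hg38, per the submitters' processing notes; the counting program and its use of strand are not given in the sources used here. The authors deposited raw counts per gene, a normalized signal (counts divided by 1 size factor per sample, as tested on the values), FPKM, log2 fold changes and p-values of their own comparison. Gene lengths are also as the authors deposited them. The 30386 identifiers and their coordinates were all found in GENCODE release 29.

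Here, counts were filtered with filterByExpr, scaled by TMM and fitted with edgeR 4.0.16 (quasi-likelihood F-test, group as the only term, Benjamini-Hochberg adjustment over 15330 genes). Log2 CPM used a prior count of 2. SE came from the fold change and F. The test was tried on simulated counts. Alternatives were other scalings, no filter, a filter at 1 CPM, DESeq2 1.42.0, limma-voom (limma 3.58.1), a replicate block and each sample left out. The members and lists were chosen with earlier results of these data known. The naming rule took all members, up to 4 called genes per list and direction averaging 5 CPM or more in either group, and the 3 genes most like CTGF, CYR61 and ANKRD1. Some genes that this rule or the lists take in are not reported here. Lists were 4 (Hippo, further YAP targets, other CCN genes, SRF and MRTF targets) and markers of 5 cell types (endothelial, mural and mesenchymal, epithelial, cardiac muscle, pluripotency). The pluripotency sum, 39.0 to 91.0 CPM in iEC and 53.3 to 505 CPM in iREC, was nearly all LIN28A and DPPA4: LIN28A was called higher (482 CPM in iREC F) and DPPA4 lower (means 46.4 and 25.6 CPM), while POU5F1, NANOG and SOX2 reached at most 19, 2 and 6 counts in any sample. Promoter sequences are from RefSeq. Depth sets the floor: 3 counts were 0.178 to 0.215 CPM, and this covers counting error only.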

Additional observations from a re-analysis of the deposited data

Results flagged for a closer look

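In 64 groups of 4 samples (named genes and summed markers), 5 held a sample whose gap to the nearest other was larger, as a part of the whole range, than Dixon's 95% critical value; chance flags about 1 in 20 groups, or 3.2 here. TEAD2 in iREC F was low, 5.21 log2 CPM against 5.40 to 5.44 in the other iREC samples. AMOTL2 in iEC F was high, 7.004 log2 CPM against 6.67 to 6.70. WISP1 in iREC C was high, 7.22 log2 CPM against 6.51 to 6.59. TAGLN in iEC F was high, 5.87 log2 CPM against 4.67 to 4.80. The summed mural and mesenchymal markers in iEC F were high, 9.02 log2 summed CPM against 7.99 to 8.15.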

How the results depend on the processing

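The direction of all 10 members and 17 named list genes held under each of the 16 alternatives that tested them; of 432 such values, 399 kept their side of the threshold, 29 lost the call, 4 gained it and 0 reversed. TEAD1, TEAD3, TEAD4, ANKRD1 and AMOTL2 were called in all 16. Leaving out each sample moved the count of called members between 5 and 6, that of the Hippo list between 3 and 8, of further YAP targets between 5 and 7, of other CCN genes between 1 and 2, of SRF and MRTF targets between 6 and 10, and of all genes between 2660 (without iREC D) and 4214. DESeq2 called 10 further YAP targets, without its share of all genes beside this count. The CCN count was 1 under limma-voom. It was also 1 with a filter of 1 CPM in each sample of either group, which NOV did not pass, so there NOV was not tested. With a core of 7 bases (GGAATGT), 3.46% of promoter windows matched, since fewer sequences fit a longer motif; CTGF then held 1, AMOTL2 1, YAP1 1 and ANKRD1 0. Ratios and shares of FPKM were the same from counts per kilobase. This was fixed in advance and is no check, since a scaling factor per sample cancels in a ratio within the sample. Upper quartile scaling moved the median log2 fold change of all tested genes from 0.020 to 0.053.

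The replicate letters are shared by the groups. Same-letter deviations correlated at 0.17, -0.079, 0.029 and 0.25 (C, D, E, F), and not every sample correlated best with its own letter. The letters were not taken as pairs in the main fit, but with so few samples these values cannot exclude pairing. With the replicate block 3334 genes, 5 members, 5 Hippo, 7 further target, 2 CCN and 8 SRF and MRTF genes were called, and CTGF had an edgeR adjusted p of 0.0801. Depth limits NOV, WISP1 in iEC and TEAD3 in iEC D.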
